A study of Mus musculus with 12 samples.

Results

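The genes described here are 43 chemokine ligands and inflammatory cytokines of the mouse, chosen by name: a probe set belonged to the group if the array's annotation gave it 1 gene and that gene was on the list. Of the 43, 42 had at least 1 such probe set (65 probe sets in all), and 30 were bright enough to be tested among 13628 genes. Their RNA was measured in microdissected olfactory epithelium on 12 one-colour Affymetrix arrays, with 3 arrays in each of 4 groups. All mice were wild-type male C57BL/6J, 6 weeks old, and all were given liposomes, 50 µl intranasally on each of 3 days and 200 µl intravenously on the first and the third of them. The Lip-C OBX group received liposomes with clodronate, a drug that kills phagocytes that take it up, and lost both olfactory bulbs on the second day (OBX). The Lip-O OBX group had the same operation with empty liposomes. The Lip-C sham group received clodronate liposomes and a sham operation, and the Lip-O sham group empty liposomes and a sham operation. Tissue was taken 48 h after the operation. Clodronate liposomes are not specific to macrophages of the epithelium: the intravenous doses were aimed at a subset of blood monocytes, so both populations could differ between the groups. The titles call the arrays of a group biological replicates, but the labels do not say whether RNA of several mice was pooled.

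Chemokines are small secreted proteins that attract leukocytes by binding G protein-coupled receptors on their surface. The inflammatory ones are induced in epithelium, endothelium and resident macrophages by injury or infection, often through the transcription factor NF-kB. The homeostatic ones are made steadily and place cells in tissues. Cytokines such as interleukin-1 and tumour necrosis factor raise many chemokines in turn, and the colony-stimulating factors keep myeloid cells alive and make them divide. Cutting the axons of olfactory sensory neurons by OBX makes these neurons die within days, and macrophages enter the epithelium to clear them. The study's design crosses both treatments to ask how macrophages bear on neuron loss, protection and renewal.

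Signals are on a linear scale, scaled to a common trimmed mean of 500 (2% trimmed), and a signal of one probe set is not set against that of another. The 40th percentile of an array's signals lay between 65.3 and 79.3, and probe sets that exceeded it on fewer than 3 arrays were not tested. Changes are differences of log2(signal + 16) with their standard errors, and ± after a mean signal is the SD of 3 arrays. A gene is said to have passed the test, risen or fallen where its p-value from limma, adjusted over all 13628 genes, was under 0.05. Where a group's mean lay under the 40th percentile, signals stand in place of a change. Markers of mature olfactory sensory neurons (Omp, Gng13, Adcy3, Cnga2 and Gnal) were bright on every array, and their summed signal was 30549 to 53111 on OBX arrays, against 59472 to 68757 on sham arrays. The aim of macrophage depletion can be set beside Csf1r, the receptor that macrophages need to survive: its signals were 1474, 1209.8 and 1309.8 in Lip-C sham mice, against 2231, 2589 and 2328 in Lip-O sham mice. They were 2381, 2657 and 1794 in Lip-C OBX mice, against 3413, 2754 and 2176 in Lip-O OBX mice. Of 10 macrophage markers, 2 passed the test as lower in Lip-C sham mice than in Lip-O sham mice (0 without Lip-O sham replicate 1, an array described below), and 0 of 10 passed limma's test for Lip-C OBX against Lip-O OBX (1 at an unadjusted p under 0.05). The summed signal of 4 bone markers also differed between sham groups, 2233 to 2848 in Lip-C sham mice, against 12374 to 15450 in Lip-O sham mice, with 4 of 4 lower by the test. Its part in the values of Csf1r and of the members was not tested. In bulk tissue, fewer cells of a type and less RNA per cell cannot be told apart.

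Which members could be measured differed by role. By the probe set that stood for each gene, 17 of 42 members exceeded the 40th percentile on all 12 arrays: Ccl4, Ccl6, Ccl8, Ccl9, Ccl25, Ccl27a, Ccl28, Cxcl1, Cxcl5, Cxcl12, Cxcl16, Cxcl17, Cx3cl1, Il1b, Il18, Il33 and Csf1. Another 7 did so on 6 to 11 arrays (Ccl12, Ccl17, Ccl20, Cxcl10, Cxcl13, Cxcl14 and Csf2) and 6 on 3 to 5 arrays (Ccl2, Ccl3, Cxcl2, Il1rn, Il6 and Csf3). The 8 members above it on 1 or 2 arrays (Ccl5, Ccl7, Cxcl9, Cxcl11, Cxcl15, Il1a, Il34 and Tnf) and the 4 above it on none (Ccl11, Ccl22, Xcl1 and Il10) were not tested. Ccl19, which guides dendritic cells and T cells to lymph nodes, was covered here only by a probe set shared with other genes and is given no value.

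One array stood apart in these genes before any group was compared. On Lip-O sham replicate 1, Il6, the fever and acute-phase cytokine, had a signal of 5387, against 11.4 to 381 on the other 11 arrays. Cxcl2, a neutrophil attractant, had 3865 there, against 17.3 to 325 elsewhere. Ccl20, which attracts cells bearing Ccr6, had 7376 there, against 10.7 to 1700.1 elsewhere. Each of these genes was thus brightest on an array from the group with neither bulbectomy nor clodronate. The other neutrophil attractant of this kind, Cxcl1, had 4620.3 there, against 133 to 878 elsewhere. Il1b, the inflammasome-processed interleukin-1, had 2259, against 77.3 to 422, and Il1rn, the antagonist of its receptor, 586, against 6.3 to 145. Cxcl10, an interferon-inducible attractant of activated T cells, had 1392, against 37.2 to 212. These are inducer and antagonist, neutrophil and T cell attractants together, so the excess was not limited to 1 role. Ccl3, an attractant of monocytes and macrophages, had 967, against 1.7 to 95.6, and Csf3, the granulocyte colony-stimulating factor, 451, against 8.9 to 108. Tnf and Il1a, which were too dim to be tested, had 213 and 254 there, against 4.4 to 16.2 and 5.1 to 53.6 elsewhere. For Tnf this was the only array above the 40th percentile.

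**Figure D1:**
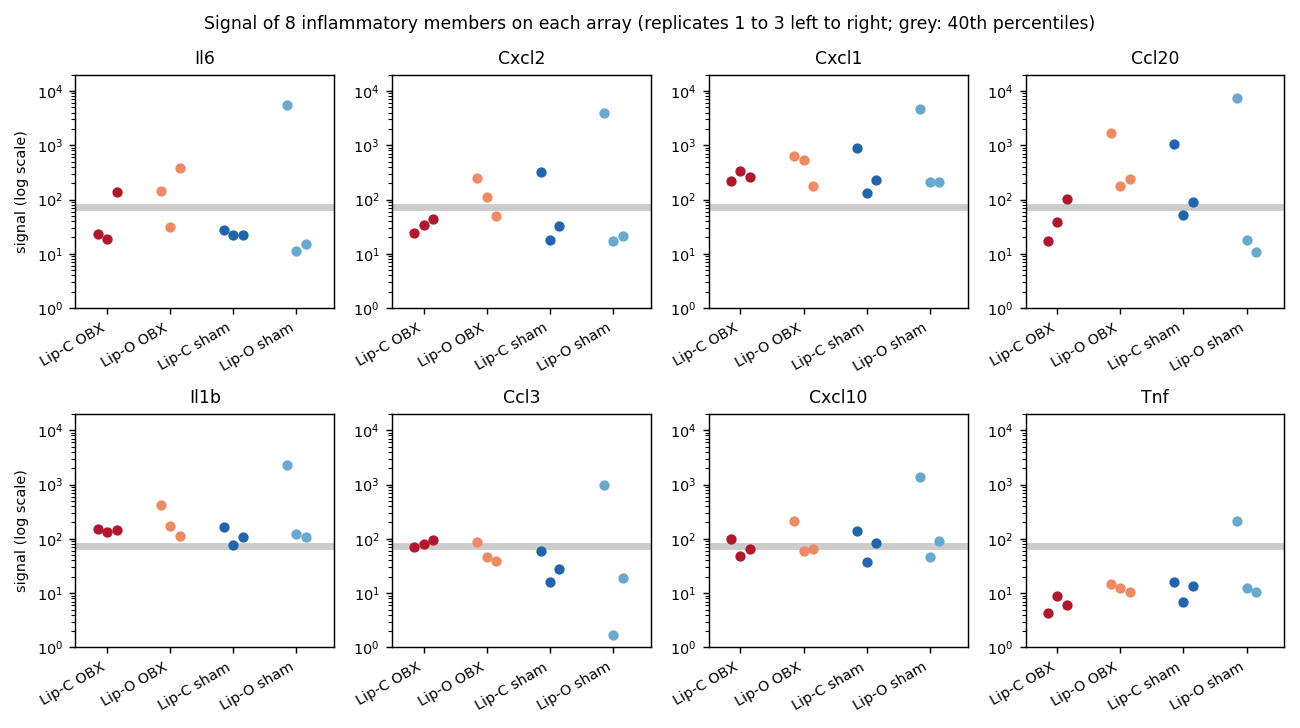
Signal of Il6, Cxcl2, Cxcl1, Ccl20, Il1b, Ccl3, Cxcl10 and Tnf on each of the 12 arrays (log axis; replicates 1 to 3 from left to right within a group; the grey band spans the arrays' 40th percentiles). In every panel the highest point is Lip-O sham replicate 1, and the other 2 Lip-O sham arrays lie among or below those of the other groups.

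Counted over all genes, 9 of the 13628 were at least 4 times as bright on 1 array as on any other array, and all 9 were members and had that array in common: Il6, Cxcl2, Ccl3, Cxcl10, Il1b, Cxcl1, Ccl20, Csf3 and Il1rn. The ratio to the next array was 14.1 for Il6, 11.9 for Cxcl2 and 4.05 for Il1rn. All 45037 probe sets, tested or not, were searched too, and a match counted only where its highest signal exceeded that array's 40th percentile. Dimmer probe sets were thus left out. By this rule 25 met the criterion, 17 of them on Lip-O sham replicate 1. Of those 17, 13 belonged to 11 members and 4 to other genes: Acod1, the itaconate enzyme of activated macrophages, Cxcl3, a further neutrophil chemokine, Tnfaip3, the NF-kB feedback inhibitor, and Trem1, a receptor of neutrophils and monocytes. Of the 30 tested members, 18 (60%) were highest on this array, and of all tested genes 5.82% were. The next array by this count was Lip-O OBX replicate 1, with 6 of the 30 members (20%) at their highest, against 14.1% of all tested genes.

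The other 12 tested members were not highest there: Ccl6, Ccl8, Ccl9, Ccl25, Ccl27a, Ccl28, Cxcl12, Cxcl13, Cxcl14, Cxcl17, Il18 and Il33. Ccl9 had 1797 on Lip-O sham replicate 1, against 1013 to 4012 on the other arrays. Cxcl12 had 1318 there, against 1526 to 2464 elsewhere, and was at its lowest of the 12 arrays. Il18 had 642, against 452 to 703, and Il33 3427, against 2809 to 5244. Among the 12 are both homeostatic chemokines, all 4 tested mucosal ones and the stored epithelial cytokines Il18 and Il33. Not being highest does not place them all outside the pattern: Ccl8, Ccl28 and Cxcl17 were second highest on this array. The summed signal of the 5 mucosal members with a probe set was second highest there too (9368).

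**Figure D2:**
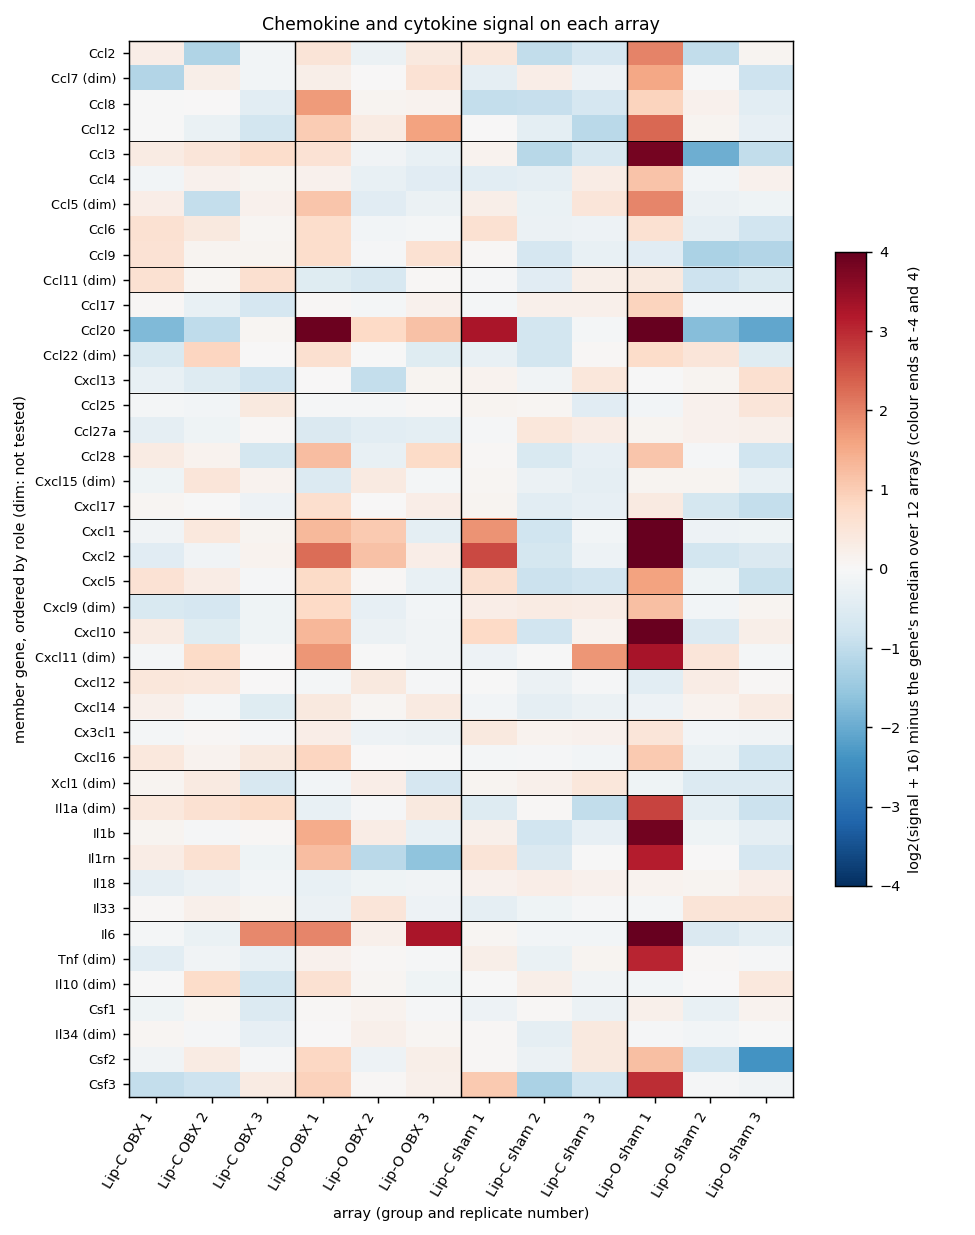
Each of the 42 members with a probe set (ordered by role, thin lines between roles) on each of the 12 arrays, as log2(signal + 16) minus the gene's median over the arrays; members marked dim were not tested. The column of Lip-O sham replicate 1 is red for most inducible members, and 18 of the 30 tested members have their highest value there.

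The promoters of the members that stood out on this array were read from RefSeq (build GRCm38.p6), since NF-kB is known to induce many of them. Of the 9 genes, 8 had an entry (Csf3 had none used here). The motif searched was GGGANNTTCC on both strands in the 250 bases before the start site, and it was found in 4 of the 8 (Il6, Cxcl1, Cxcl2 and Cxcl10), in 1 of the 22 other members with an entry (Csf1) and in 1.36% of all 27025 genes. The 22 include Tnf and Il1a, untested but also among the 11 members above, which had no match. In Cxcl1 and Cxcl2 the matches on the 2 strands overlap by all but 1 base. A match describes the letters alone, and its absence from Ccl20, Il1b, Ccl3 and Il1rn says only that these letters are not in this window. The 200 bases before the start site follow, 5′ to 3′ on the gene's strand, with the match in capitals, for the 4 genes that have it, and for Ccl20 as one that does not. They lie at chr5:30012914-30013113 (plus strand, Il6), chr5:90891045-90891244 (plus strand, Cxcl1), chr5:90903699-90903898 (plus strand, Cxcl2), chr5:92348890-92349089 (minus strand, Cxcl10) and chr1:83116566-83116765 (plus strand, Ccl20).
Il6: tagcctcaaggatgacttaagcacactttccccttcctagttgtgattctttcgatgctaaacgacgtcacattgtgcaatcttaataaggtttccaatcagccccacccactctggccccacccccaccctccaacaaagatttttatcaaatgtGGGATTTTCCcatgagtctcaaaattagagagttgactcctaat
Cxcl1: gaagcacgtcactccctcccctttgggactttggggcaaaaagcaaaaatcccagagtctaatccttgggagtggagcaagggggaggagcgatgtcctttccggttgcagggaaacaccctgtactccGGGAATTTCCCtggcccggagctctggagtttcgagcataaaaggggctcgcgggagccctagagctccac
Cxcl2: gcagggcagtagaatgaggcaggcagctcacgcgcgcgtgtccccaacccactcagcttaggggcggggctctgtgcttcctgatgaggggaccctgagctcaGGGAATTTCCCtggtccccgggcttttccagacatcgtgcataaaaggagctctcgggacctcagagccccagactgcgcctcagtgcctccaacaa
Cxcl10: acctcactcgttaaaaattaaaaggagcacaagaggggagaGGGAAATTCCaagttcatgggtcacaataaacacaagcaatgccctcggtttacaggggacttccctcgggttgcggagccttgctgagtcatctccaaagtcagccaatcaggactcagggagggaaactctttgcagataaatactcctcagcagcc
Ccl20: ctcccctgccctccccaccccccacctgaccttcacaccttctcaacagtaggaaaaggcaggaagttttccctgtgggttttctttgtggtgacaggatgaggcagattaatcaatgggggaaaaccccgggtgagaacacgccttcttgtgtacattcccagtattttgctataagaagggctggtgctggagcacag
The match begins 44 bases before the start site in Il6, 71 in Cxcl1, 97 in Cxcl2 and 159 in Cxcl10.

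Other gene lists were read on the same array. Of 19 NF-kB feedback and cytokine-induced genes, 12 were highest on Lip-O sham replicate 1, and their summed signal was 53522 there, against 11902 to 40576 on the other 11. Among them Saa3, an acute-phase protein made by epithelium and macrophages, had 8047, against 51.4 to 2435 elsewhere, and Socs3, the feedback inhibitor of interleukin-6 signalling, 2043, against 256 to 1152. Of 6 interferon-induced genes, 3 were highest there, with a sum of 5752, against 1352.5 to 3696. The summed signal of 7 neutrophil markers was 23754 there, against 12317 to 42146 elsewhere, the fifth highest of 12, with 0 of the 7 at their highest and Cxcr2, the receptor for Cxcl1 and Cxcl2, under the 40th percentile on every array. For 10 macrophage markers the sum was 6495, against 3706 to 11585, the sixth highest. For 5 dendritic cell and class II genes it was 6239.8, against 2091 to 10468, the second highest. For 4 monocyte markers it was 3194, against 1532 to 5008, the fourth highest, with 1 of the 4 at its highest. The array's median signal, 117.5, was the lowest of the 12, and the summed signal of 3 platelet markers was the lowest as well, 1162, against 1572 to 5513. So was that of 5 endothelial markers, 764.6, against 817 to 1560.8. The sum of 3 respiratory ciliated cell markers was the second highest, 3145.8, with 2 of the 3 at their highest. Their part in the pattern was not tested. Because 1 of 3 Lip-O sham arrays carries it, the counts of members that passed are given below with all 12 arrays and without this one. The array was singled out by the signals of these same members. Leaving it out thus lowers the Lip-O sham mean of most of them by construction.

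**Figure D3:**
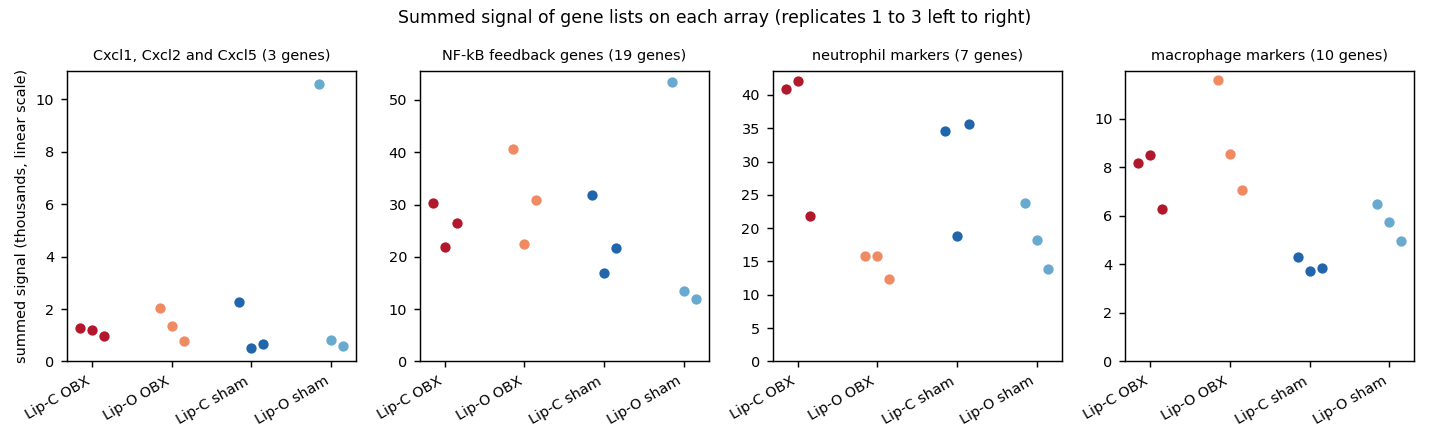
Summed signal (linear axis from 0) on each array for Cxcl1, Cxcl2 and Cxcl5, for 19 NF-kB feedback genes, for 7 neutrophil markers and for 10 macrophage markers; points are arrays, replicates 1 to 3 from left to right. Lip-O sham replicate 1 has the highest sum in the panels of the neutrophil chemokines and the NF-kB list, and a middle one in both marker panels.

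Few of the members passed the test for bulbectomy, in both directions. With all 12 arrays, 3 of 30 passed in Lip-O mice (Ccl9 higher, Ccl27a and Il18 lower), where 19.6% of all tested genes passed. In Lip-C mice 1 of 30 passed (Il18, lower), against 19.2% of all genes. Over both liposome treatments 4 of 30 passed (Ccl9 higher; Ccl27a, Il18 and Cxcl13 lower), against 32.7% of all genes. Without Lip-O sham replicate 1 the counts were 6 of 30 in Lip-O mice (13.6% of all genes), 1 of 30 in Lip-C mice (18.6%) and 8 of 30 over both (28.3%). The members added without it were Ccl3, Csf2 and Cxcl17 in Lip-O mice, and these with Cxcl16 over both. The share of members that passed was below that of all genes in 5 of these 6 counts, and above it in Lip-O mice without that array. As the array was picked by the members' own signals, the higher share without it is not independent evidence of a rise after OBX. With all 12 arrays, the members' standard errors in Lip-O mice ran from 0.08 (Il18) to 1.93 (Ccl20), against a median of 0.124 over all genes. A member that did not pass was thus not shown to be unchanged.

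The median change of the 30 members shows how much that 1 array weighs, and the direction of the shift follows from how the array was picked. For Lip-O OBX against Lip-O sham mice it was -0.17 on the log2 scale with 12 members higher and 18 lower, and 0.68 without the array, with 22 higher and 8 lower. The median of all genes was 0.05 and 0.04 in the same fits. For Lip-C OBX against Lip-C sham mice, which the array does not enter, the members' median was 0.15, with 18 higher and 12 lower.

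**Figure D4:**
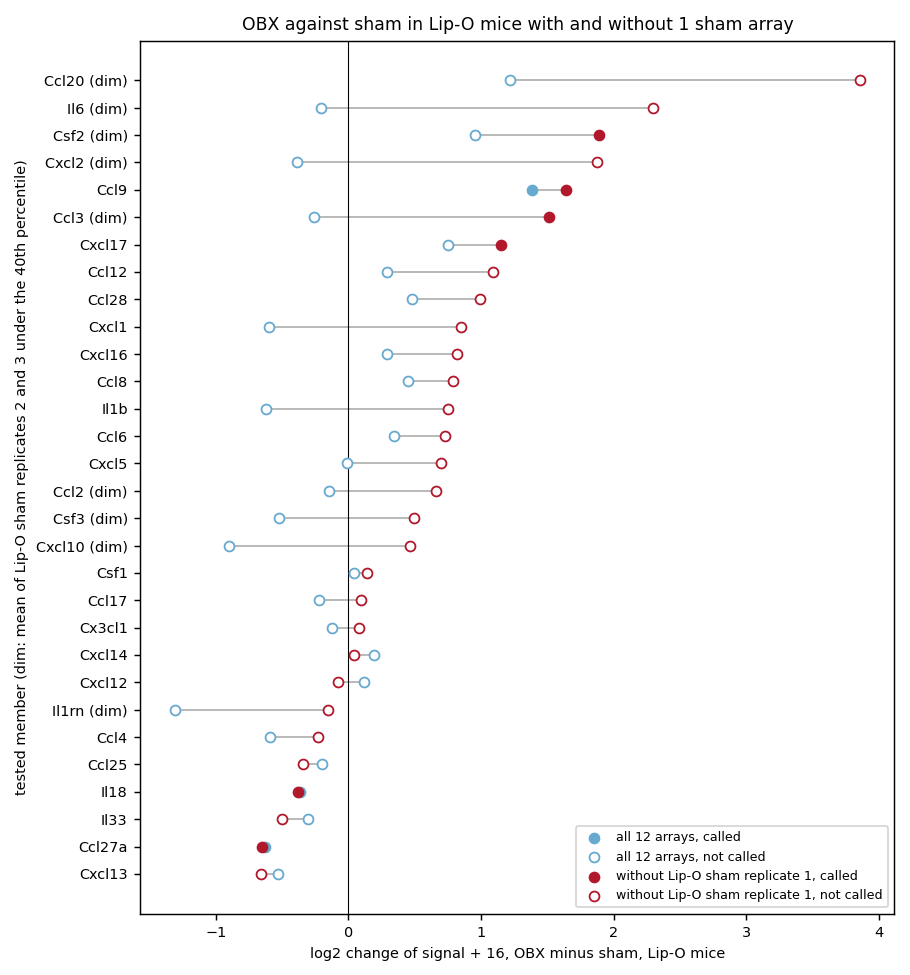
Change of log2(signal + 16) between Lip-O OBX and Lip-O sham mice for the 30 tested members, with all 12 arrays (blue) and without Lip-O sham replicate 1 (red); filled points passed the test, and names marked dim had a mean under the 40th percentile on the other 2 Lip-O sham arrays, so that their change depends on the constant added. Ccl9, Il18 and Ccl27a are filled in both settings, while 12 members cross 0 between them, among them Il6, Cxcl2, Ccl3, Cxcl1, Il1b, Cxcl10, Csf3 and Ccl2.

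Among the chemokines that attract monocytes and macrophages, Ccl9 was the only member of the 30 that rose with all 12 arrays. Its signals were 4012, 2398 and 3776 in Lip-O OBX mice, against 1797, 1013 and 1089 in Lip-O sham mice, and the groups did not overlap. The change was 1.39 ± 0.27 (adjusted p = 0.00713), and 1.64 ± 0.26 without Lip-O sham replicate 1 (adjusted p = 0.00663). In Lip-C mice Ccl9 had 3673, 2662 and 2664 after OBX, against 2518, 1543 and 1982 after sham, again without overlap. The change of 0.58 ± 0.27 did not pass (adjusted p = 0.151), but it passed with the replicate number as a block (adjusted p = 0.0182). The difference between the changes in Lip-O and Lip-C mice did not pass (adjusted p = 0.304, or 0.0994 with the block). Over both treatments the change was 0.98 ± 0.19 (adjusted p = 0.00369), and the gene's second probe set gave 1.08 ± 0.23 (adjusted p = 0.00662). Among sham mice Lip-C arrays were on average brighter for Ccl9, 2014 ± 488 against 1299.9 ± 432, a change of 0.65 ± 0.27 (adjusted p = 0.198). With the replicate number as a block its adjusted p was 0.0467, so that this call depends on the pairing. Beside it, of 10 macrophage markers 4 were higher in Lip-O OBX than in Lip-O sham mice and 7 in Lip-C OBX than in Lip-C sham mice, none lower. Their summed signal was 6294 to 8485 in Lip-C OBX, 7067 to 11585 in Lip-O OBX, 3706 to 4306 in Lip-C sham and 4943 to 6495 in Lip-O sham mice. The part of macrophage number in the rise of Ccl9 was not tested.

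No other member of this role passed with all 12 arrays. Ccl6, a myeloid chemokine of rodents, had 403, 347 and 275 in Lip-C OBX, 431, 240.5 and 244 in Lip-O OBX, 401, 215 and 223 in Lip-C sham and 399, 200.0 and 145 in Lip-O sham mice. In each of these groups replicate 1 was the highest, and the groups overlapped. Ccl3 had 70.7, 79.4 and 95.6 in Lip-C OBX, against 60, 16.1 and 27.9 in Lip-C sham mice, with no overlap (adjusted p = 0.549). In Lip-O mice Ccl3 had 86.2, 46.3 and 39.5 after OBX, against 967, 1.7 and 18.7 after sham. All but 4 of the 12 Ccl3 signals lay under the 40th percentile, and its adjusted p over both treatments was 0.742 with all arrays and 0.00746 without Lip-O sham replicate 1. Ccl4, a close relative of Ccl3, ranged over 80.2 to 144 on the other 11 arrays and passed in no comparison. Ccl5, made by T cells and activated epithelium, exceeded the 40th percentile on 2 arrays, Lip-O OBX replicate 1 (114.5) and Lip-O sham replicate 1 (220.0).

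The members of the interleukin-1 family split. Il18, which epithelial cells store as a precursor and release after cleavage by caspase-1, fell after OBX under both liposome treatments. Its signals were 476, 518 and 526 in Lip-O OBX mice, against 642, 628 and 703 in Lip-O sham mice, a change of -0.37 ± 0.08 (adjusted p = 0.0138). In Lip-C mice they were 452, 490.2 and 541 after OBX, against 654, 698 and 666 after sham, a change of -0.44 ± 0.08 (adjusted p = 0.00934). All 6 OBX arrays lay below all 6 sham arrays, and the change over both was -0.40 ± 0.06 (adjusted p = 0.00103). It was the member with the lowest adjusted p over both treatments. In Lip-O mice the adjusted p was 0.0551 without Lip-O OBX replicate 1 and 0.0548 without Lip-O sham replicate 3. Markers of mature olfactory sensory neurons fell in the same comparisons, 5 of 5 in Lip-O and 2 of 5 in Lip-C mice, and their part in the fall of Il18 was not tested.

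Il33, an alarmin held in the nuclei of epithelial and stromal cells, had 3749, 4196 and 3893 in Lip-C OBX, against 2809, 3209.6 and 3532 in Lip-C sham mice, with no overlap. In Lip-O mice it had 3099.5, 5076 and 3141 after OBX, against 3427, 5172 and 5244 after sham, and these overlapped. Neither change passed: 0.31 ± 0.21 in Lip-C (adjusted p = 0.308) and -0.30 ± 0.21 in Lip-O mice (adjusted p = 0.337). Over both treatments the change was 0.01 ± 0.15 (adjusted p = 0.982). Il1b had 153, 136 and 147 in Lip-C OBX, 422, 176 and 113 in Lip-O OBX, 164, 77.3 and 109.7 in Lip-C sham, and 2259, 123 and 107 in Lip-O sham mice. Apart from the array described above, only Lip-O OBX replicate 1 exceeded 200 in Il1b. Il1rn had 66.8, 87.8 and 43.5 in Lip-C OBX, 145, 16.3 and 6.3 in Lip-O OBX, 81.6, 29.7 and 50.6 in Lip-C sham, and 586, 52.9 and 26.6 in Lip-O sham mice, with 8 of the 12 under the 40th percentile. Il1a, the membrane-held relative of Il1b, had 39.4 to 53.6 in Lip-C OBX, 17.8 to 37.9 in Lip-O OBX, 5.1 to 27.2 in Lip-C sham and 254, 15.3 and 7 in Lip-O sham mice.

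**Figure D5:**
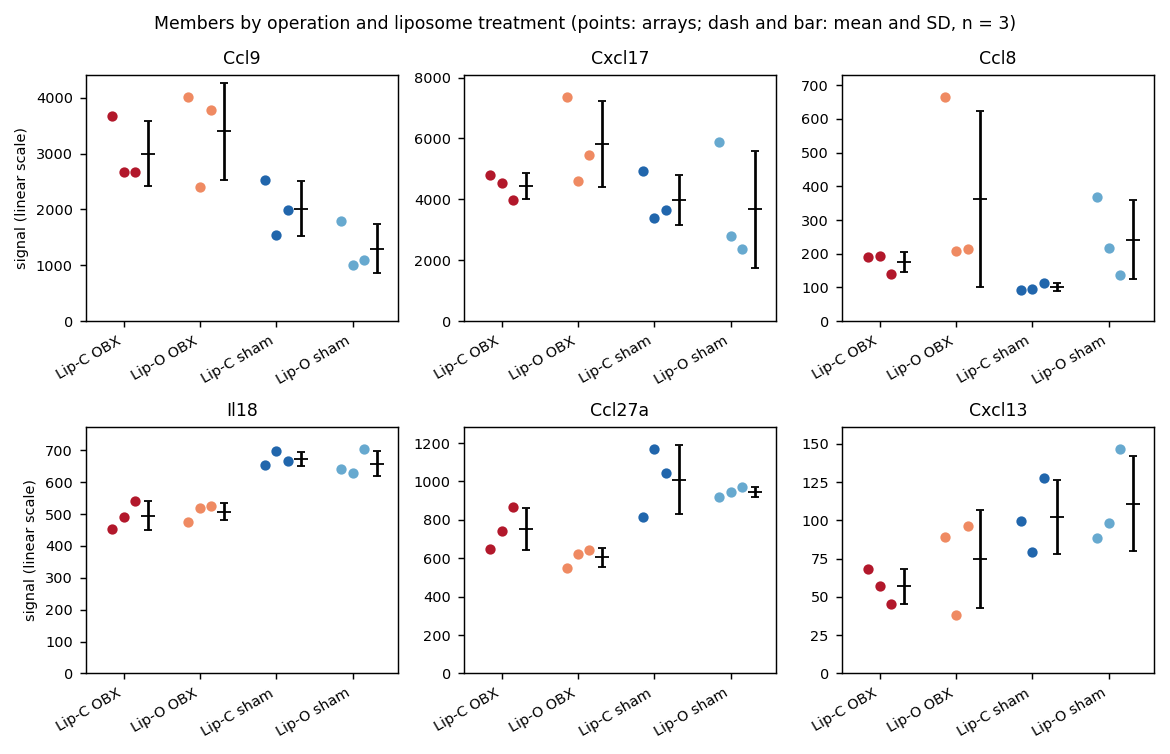
Signal (linear axis from 0) of Ccl9, Cxcl17, Ccl8, Il18, Ccl27a and Cxcl13 on each array, with the mean and SD of 3 arrays beside the points. Ccl9 is higher and Il18 lower in both OBX groups than in their sham groups without overlap, and Ccl8 is lower on Lip-C arrays than on Lip-O arrays of the same operation.

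The mucosal chemokines are made by epithelium of skin, gut, airway and glands. Ccl27a, which in skin attracts T cells bearing Ccr10, fell after OBX. It had 551, 621 and 643 in Lip-O OBX mice, against 916, 944 and 971 in Lip-O sham mice, with no overlap and a change of -0.63 ± 0.14 (adjusted p = 0.0115). In Lip-C mice it had 647, 739.6 and 866 after OBX, against 813, 1168 and 1046 after sham, which overlapped. The change of -0.41 ± 0.14 did not pass (adjusted p = 0.0606), but it passed with the replicate number as a block (adjusted p = 0.0237). Over both the change was -0.52 ± 0.10 (adjusted p = 0.00311), and the difference between the liposome treatments did not pass (adjusted p = 0.594). Near-identical copies of this gene exist in the mouse genome, and 2 more probe sets shared by 5 such genes were left out, so the signal may include them.

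For Cxcl17, an airway and gland chemokine, the call turned on 1 array and on whether the replicate number was a block. It had 7364, 4617 and 5443 in Lip-O OBX mice, against 5888, 2789.5 and 2357 in Lip-O sham mice, where replicate 1 overlapped the OBX arrays. The change of 0.75 ± 0.30 did not pass with all 12 arrays (adjusted p = 0.109), and it passed without Lip-O sham replicate 1 (1.15 ± 0.21, adjusted p = 0.011) and with the replicate number as a block (adjusted p = 0.0273). In Lip-C mice Cxcl17 had 4816, 4529.5 and 3967 after OBX, against 4918, 3397 and 3649.8 after sham, a change of 0.17 ± 0.30 (adjusted p = 0.729). Over both the change was 0.46 ± 0.21 (adjusted p = 0.126), or 0.66 ± 0.14 without that array (adjusted p = 0.00848). With the block its adjusted p was 0.0315. Of 4 Bowman gland markers, 3 were higher in Lip-O OBX than in Lip-O sham mice (2 without that array), with sums of 16610 to 23234, against 7898 to 13214. In Lip-C mice 2 of the 4 were higher after OBX, with sums of 16380 to 20673, against 12916 to 14274 after sham. Their part in the values of Cxcl17 was not tested. Ccl28, a chemokine of mucosal plasma cells, was highest on Lip-O OBX replicate 1 (2592) and Lip-O sham replicate 1 (2375), and ranged over 625 to 1873 on the other 10. Its groups overlapped. Ccl25, the thymus and gut chemokine, ranged only over 105.3 to 213 on all 12 arrays, while its second probe set was lower after OBX over both treatments (-0.41 ± 0.12, adjusted p = 0.0288, each probe set taken by itself), and Cxcl15, known from mouse lung, exceeded the 40th percentile on 1 array with each of its 2 probe sets, with 75.6 on Lip-C OBX replicate 2 for the one that stood for it and 87.0 on Lip-O OBX replicate 3 for the other.

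Among the chemokines of dendritic cells and lymphoid tissue, Cxcl13, which places B cells in follicles, was lower after OBX. It had 68.4, 57.1 and 45.6 in Lip-C OBX, against 99.7, 79.2 and 128 in Lip-C sham mice, with no overlap. In Lip-O mice it had 89.4, 37.9 and 96.5 after OBX, against 88.2, 98.1 and 146 after sham, with overlap. The adjusted p was 0.038 over both treatments, and it did not pass within either. These signals lie near the 40th percentile, and the call is the least steady of the 4: it was lost under 9 of 23 alternatives, among them leaving out any 1 of Lip-C OBX replicates 2 and 3, Lip-C sham replicates 1 and 3, Lip-O OBX replicate 2 and Lip-O sham replicates 2 and 3 (adjusted p 0.0532 to 0.0859). Ccl20, which epithelium makes under NF-kB control, had 17, 39.1 and 102 in Lip-C OBX, 1700.1, 179 and 236 in Lip-O OBX, 1059, 51 and 90.5 in Lip-C sham, and 7376, 18.1 and 10.7 in Lip-O sham mice. The highest Ccl20 signal in 3 of the 4 groups was on the array numbered 1, and the range within the Lip-O sham group covered all other arrays. The Ccl20 signals of the 3 Lip-C OBX arrays were below those of the 3 Lip-O OBX arrays (adjusted p = 0.578). Over both treatments the OBX change did not pass (adjusted p = 0.906). Ccl17, a ligand of Ccr4, ranged over 65.2 to 134 on the other 11 arrays and had 225 on Lip-O sham replicate 1, while Ccl22, which shares that receptor, reached at most 46.3.

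The monocyte chemoattractants bind Ccr2 or related receptors. Ccl8 was the member that separated the liposome treatments after both operations, and the difference did not pass the test. It had 192, 193 and 141 in Lip-C OBX, against 665, 208 and 215 in Lip-O OBX mice. After sham it had 92.8, 94.1 and 114 in Lip-C, against 369, 217 and 138 in Lip-O mice. Lip-C arrays were below Lip-O arrays without overlap after both operations. Over both operations the change was -0.92 ± 0.29 (adjusted p = 0.147), and -0.75 ± 0.28 without Lip-O sham replicate 1 (adjusted p = 0.238). Ccl8 is known to be made by tissue macrophages, and the OBX change over both liposome treatments was 0.58 ± 0.29 (adjusted p = 0.155). Ccl12, a mouse ligand of Ccr2, had 95.3, 76.5 and 51.6 in Lip-C OBX, against 208, 123 and 328 in Lip-O OBX mice, with no overlap (adjusted p = 0.398). After sham it had 96.1, 69.9 and 37.4 in Lip-C, against 530.5, 105 and 72.7 in Lip-O mice, with overlap (adjusted p = 0.289). Ccl2, the main Ccr2 ligand, exceeded the 40th percentile on 5 arrays only and had 297 on Lip-O sham replicate 1, against 18.2 to 95.6 elsewhere. Ccl7 reached 48.2 at most on the other 11 arrays.

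Of the neutrophil chemokines, which bind Cxcr2, none passed. Cxcl5, made by airway epithelium, had 1036, 844 and 659.8 in Lip-C OBX, 1164, 704 and 557 in Lip-O OBX, 1075, 369 and 393 in Lip-C sham, and 2108, 606 and 363 in Lip-O sham mice. Replicate 1 was the highest of each group, and the OBX change over both treatments was 0.30 ± 0.42 (adjusted p = 0.616). Cxcl1 had 219, 329.8 and 262 in Lip-C OBX, 628, 526 and 181 in Lip-O OBX, 878, 133 and 227 in Lip-C sham, and 4620.3, 208 and 214 in Lip-O sham mice. Cxcl2 had 24.6, 34.2 and 44.7 in Lip-C OBX, 245, 109 and 50.2 in Lip-O OBX, 325, 17.8 and 32 in Lip-C sham, and 3865, 17.3 and 21.3 in Lip-O sham mice. Both were highest on the array numbered 1 in the Lip-O OBX, Lip-C sham and Lip-O sham groups, and the Lip-C OBX group was the one with no such array. The 3 Lip-C OBX arrays were below the 3 Lip-O OBX arrays in Cxcl2 without passing the test (adjusted p = 0.766). Neutrophil markers did not follow the chemokines by group: their sums were 21769 to 42146 in Lip-C OBX, 12317 to 15807 in Lip-O OBX, 18842 to 35564 in Lip-C sham and 13854 to 23754 in Lip-O sham mice.

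No homeostatic or membrane-bound chemokine passed with all 12 arrays. Cxcl12, the ligand of Cxcr4 and made by stromal cells, had 2464, 2409.6 and 1815 in Lip-C OBX, against 1745, 1526 and 1741 in Lip-C sham mice, with no overlap. In Lip-O mice it had 1668, 2321 and 1739 after OBX, against 1318, 2174 and 1833 after sham, with overlap. The change over both was 0.26 ± 0.14 (adjusted p = 0.168). The other tested probe set of Cxcl12 overlapped in Lip-C mice, with 742 to 1095 after OBX, against 723.5 to 916 after sham. Cxcl14, an epithelial chemokine, ranged over 70.0 to 142 on all 12 arrays, and its change for Lip-C against Lip-O over both operations was -0.37 ± 0.13 (adjusted p = 0.179). Cx3cl1, the membrane-anchored ligand of Cx3cr1 on macrophages, had 419.9, 467 and 429 in Lip-C OBX, against 592, 499.9 and 511 in Lip-C sham mice, with no overlap. In Lip-O mice it had 539.5, 385 and 382 after OBX, against 628, 409 and 404 after sham, with overlap. Its change over both was -0.20 ± 0.12 (adjusted p = 0.243). The other tested probe set of Cx3cl1 overlapped in Lip-C mice, with 200.4 to 260.4 after OBX, against 212.5 to 308.1 after sham. Cxcl16, the other membrane-bound chemokine and a scavenger receptor, had 369, 299 and 359 in Lip-C OBX, against 255, 258 and 246 in Lip-C sham mice, with no overlap. In Lip-O mice Cxcl16 had 502, 271 and 266 after OBX, against 575, 220.2 and 148 after sham, where replicate 1 was the highest of all 12. Over both treatments the change was 0.35 ± 0.28 (adjusted p = 0.36), and 0.61 ± 0.17 without that array (adjusted p = 0.0239). The other tested probe set of Cxcl16 overlapped in Lip-C mice, with 135.1 to 238.7 after OBX, against 59.8 to 187.4 after sham.

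None of the interferon-inducible chemokines, ligands of Cxcr3, passed the test. Cxcl10 had 97.5, 49.3 and 63.9 in Lip-C OBX, 212, 60.7 and 65.3 in Lip-O OBX, 141, 37.2 and 84.8 in Lip-C sham, and 1392, 46.1 and 90.8 in Lip-O sham mice. It overlapped in every comparison, and its adjusted p for OBX over both treatments was 0.579. Cxcl9 (by the probe set with its highest mean log2 value) and Cxcl11 exceeded the 40th percentile only on Lip-O sham replicate 1, with 94.2 and 213. The other probe set of Cxcl9 had 871 there, 290.1 on Lip-O OBX replicate 1 and at most 28.8 on the other 10 arrays. Cxcl11 had 63.4 on Lip-O OBX replicate 1 and 63.3 on Lip-C sham replicate 3. Ccl11, the eosinophil attractant eotaxin, had 34.6, 19 and 35.8 in Lip-C OBX, 7.7, 5.6 and 18.7 in Lip-O OBX, 16.3, 8.5 and 23.1 in Lip-C sham, and 28.1, 2.9 and 5.9 in Lip-O sham mice. Xcl1, made by T and NK cells, had 26.3, 34.1 and 9.5 in Lip-C OBX, 20.9, 31.1 and 8.7 in Lip-O OBX, 26.2, 29.3 and 37.9 in Lip-C sham, and 18.7, 11 and 11.3 in Lip-O sham mice. Every signal of both lay under the 40th percentile.

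Among the other cytokines Il6 had 23, 18.5 and 140.3 in Lip-C OBX, 144, 31.6 and 381 in Lip-O OBX, 27.5, 22.4 and 22.3 in Lip-C sham, and 5387, 11.4 and 15.5 in Lip-O sham mice. Outside Lip-O sham replicate 1, the 3 arrays above the 40th percentile were all from OBX mice, 2 of them Lip-O and 1 Lip-C. The OBX change over both treatments did not pass with that array (adjusted p = 0.923) or without it (adjusted p = 0.0756). Il10, the anti-inflammatory cytokine, reached at most 43.6. Of the factors that sustain myeloid cells, Csf1, a ligand of Csf1r, had 219.7, 263 and 165 in Lip-C OBX, 254, 277 and 241 in Lip-O OBX, 211, 257 and 206 in Lip-C sham, and 290.2, 197 and 272 in Lip-O sham mice. The groups overlapped, with a change of -0.01 ± 0.12 for OBX over both (adjusted p = 0.939), while its 2 other tested probe sets gave 0.15 and 0.47 (adjusted p = 0.401 and 0.0817). Il34, the other ligand of that receptor, reached 86.7 at most and was not tested. Csf2, the granulocyte-macrophage factor, had 83.4, 122 and 89.1 in Lip-C OBX, 175, 79.3 and 113 in Lip-O OBX, 96.2, 76.7 and 125 in Lip-C sham, and 235, 46.3 and 4.6 in Lip-O sham mice. The Lip-O sham arrays held both its highest and its lowest signal. For Lip-O OBX against Lip-O sham its adjusted p was 0.36 with all arrays and 0.0218 without Lip-O sham replicate 1, which left 2 arrays at 46.3 and 4.6, both under the 40th percentile. Csf3 exceeded the 40th percentile on 3 arrays, Lip-O sham replicate 1 (451), Lip-C sham replicate 1 (107.8) and Lip-O OBX replicate 1 (98.3), all numbered 1.

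No member passed limma's test for clodronate with all 12 arrays. For Lip-C against Lip-O in sham mice 0 passed (2.1% of all genes did), with 3 at an unadjusted p under 0.05: Ccl8, Ccl9 and Il33. With the replicate number as a block 1 passed, Ccl9 as above. In OBX mice 0 passed (0.345% of all genes), with 1 at an unadjusted p under 0.05, Cxcl14. Over both operations 0 passed (1.59% of all genes), with 3 at an unadjusted p under 0.05: Ccl12, Ccl8 and Cxcl14. Without Lip-O sham replicate 1 the counts were 0 in sham mice (0.704% of all genes), 0 in OBX mice (0.345%) and 0 over both (0.925%), with 8, 3 and 6 members at an unadjusted p under 0.05. The members' median change in sham mice was -0.36 with 8 higher and 22 lower, and 0.14 without the array, with 19 higher and 11 lower. In OBX mice, which the array does not enter, it was -0.25 with 11 higher and 19 lower. The interaction, which asks whether OBX acted differently under clodronate, was passed by 0 of 30 members and 0% of all genes, with 0 members at an unadjusted p under 0.05. Without the array 0 members and 0% of all genes passed it, with 6 members at an unadjusted p under 0.05: Ccl9, Ccl20, Csf2, Cxcl2, Cxcl17 and Il33.

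Separation of the arrays was counted too, without a test. Of the 30 members, 1 had no overlap between Lip-C and Lip-O in sham mice (Ccl8), where 29.6% of all genes had none. In OBX mice 5 had none (Ccl8, Ccl12, Ccl20, Ccl27a and Cxcl2), against 16% of all genes. Between OBX and sham, 3 had none in Lip-O mice (Ccl9, Ccl27a and Il18; 37.7% of all genes) and 9 in Lip-C mice (Ccl3, Ccl8, Ccl9, Cxcl12, Cxcl13, Cxcl16, Cx3cl1, Il18 and Il33; 40.2%). The 9 in Lip-C mice were 6 higher after OBX and 3 lower (Cxcl13, Cx3cl1 and Il18). These counts use the probe set that stood for each gene. For Cxcl12, Cxcl16 and Cx3cl1 the other tested probe set overlapped between Lip-C OBX and Lip-C sham mice. The comparisons of one liposome treatment share arrays with those of one operation.

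The partners of these ligands were counted as well. Of 22 chemokine receptors listed 10 were tested, and over both liposome treatments 2 rose after OBX and 0 fell (3 and 0 without Lip-O sham replicate 1). Of all genes, 19.2% rose in that comparison with all 12 arrays and 16.6% without that one. Ccr2, the receptor of monocytes for Ccl2 and Ccl12, averaged 254 ± 35.6 in Lip-C OBX, against 148 ± 41 in Lip-C sham mice, and 195 ± 42.6 in Lip-O OBX, against 157 ± 12.4 in Lip-O sham mice (0.50 ± 0.13, adjusted p = 0.0146). Cxcr4, the receptor for Cxcl12, averaged 824 ± 71.9 in Lip-C OBX, against 741 ± 42.2 in Lip-C sham mice, and 1244 ± 189 in Lip-O OBX, against 896 ± 45.8 in Lip-O sham mice (0.30 ± 0.08, adjusted p = 0.0167). Cxcr4 was also lower in Lip-C than in Lip-O mice over both operations (-0.42 ± 0.08, adjusted p = 0.0355), a call lost without Lip-O sham replicate 1 (adjusted p = 0.0711). Its ligand Cxcl12 passed in neither comparison. Of 15 tested cytokine receptors and inhibitors, 4 rose after OBX over both and 0 fell (6 and 0 without Lip-O sham replicate 1), beside the same share of all genes: Csf2ra (0.59 ± 0.13, adjusted p = 0.00663), a chain of the receptor for Csf2; Il1rap (0.37 ± 0.09, adjusted p = 0.0118), the shared chain of the receptors for interleukin-1 and interleukin-33; Csf1r (0.48 ± 0.12, adjusted p = 0.0151); and Tnfrsf1a (0.35 ± 0.09, adjusted p = 0.0168), the receptor for tumour necrosis factor found on most cells. In sham mice Csf1r was lower in Lip-C than in Lip-O mice (-0.83 ± 0.18, adjusted p = 0.0426; 0.0702 without Lip-O sham replicate 1).

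Of 8 genes that mature or shed these proteins, 4 rose after OBX over both treatments and 0 fell, with and without Lip-O sham replicate 1, where 19.2% and 16.6% of all genes rose. Adam10, a protease that sheds Cx3cl1 and Cxcl16 from the membrane, averaged 3028 ± 174 in Lip-C OBX, against 2502 ± 135 in Lip-C sham mice, and 3135 ± 186 in Lip-O OBX, against 2401 ± 40.2 in Lip-O sham mice (0.33 ± 0.05, adjusted p = 0.00163). The others were Pycard (0.41 ± 0.09, adjusted p = 0.0082), the inflammasome adaptor that leads to cleavage of Il18 and Il1b, Dpp4 (0.38 ± 0.10, adjusted p = 0.0149), which trims chemokines such as Cxcl12, and Adam17 (0.34 ± 0.10, adjusted p = 0.0287), which sheds Tnf. Of 16 tested NF-kB feedback and cytokine-induced genes, 0 passed limma's test in any of the 7 comparisons with all 12 arrays, with 0 to 2 at an unadjusted p under 0.05 in each. Without Lip-O sham replicate 1, 5 rose after OBX over both: Zfp36, Lcn2, Socs3, Bcl3 and Ier3. Lcn2, an antibacterial protein of epithelium and neutrophils, shows how: it had 21662, 10452 and 18452 in Lip-O OBX, against 19901, 3636 and 2404 in Lip-O sham mice, a change of 1.52 ± 0.66 with all arrays (adjusted p = 0.129) and 2.44 ± 0.39 without that one (adjusted p = 0.00701). Of 6 interferon-induced genes, 1 fell after OBX over both, Ifit1, an antiviral RNA-binding protein (-0.93 ± 0.23, adjusted p = 0.0126). Of 7 other chemokine ligands listed, Pf4 and Ppbp, both of platelets, were tested, and 0 passed limma's test in any comparison. Both had an unadjusted p under 0.05 for Lip-C against Lip-O in sham mice, in OBX mice and over both operations, with medians of 1.02, 1.32 and 1.17 over the pair, and their summed signal with the 3 other measured genes of that list was 2937 to 5072 in Lip-C OBX, against 1206 to 2635 in Lip-O OBX mice.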

How the data were processed

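RNA of microdissected olfactory epithelium was labelled from total RNA by the standard Affymetrix protocol, per the labels' protocols. The deposited values are signal intensities per probe set on a linear scale, scaled by the authors to a trimmed mean of 500 on each of 12 arrays. How probes were summarised was not stated in the labels. Of 45101 probe sets, 64 controls were left out and 28986 exceeded the 40th percentile on at least 3 arrays. Where a gene had several, the one with the highest mean log2 value stood for it, leaving 13628 genes. Log2(signal + 16) was fitted over 4 groups with limma 3.58.1 in R 4.3.3, with Benjamini-Hochberg adjustment and a threshold of 0.05. The script was tested on simulated data. Deviations of same-numbered arrays from their group means correlated with r of 0.100 to 0.327 for Lip-C against Lip-O in sham mice. For OBX against sham in Lip-O mice r was 0.135 to 0.311. These 2 comparisons are called paired below, as every r was at least 0.100. In the other 2, r was positive too: 0.0797 to 0.253 for clodronate in OBX mice and 0.0398 to 0.165 for OBX in Lip-C mice. The median r was 0.129 for same numbers and -0.0894 for different ones. Deviations from a group's mean cancel within the group, so positive values for same numbers go with negative ones for different numbers. The latter are thus no independent baseline. The main fit held no block for the number. Members, lists and alternatives were chosen with earlier results of these data known. Tested members past the threshold and, for each role, the member with the highest mean signal are given in full. The p-values measure only the spread between these arrays, whose number limits the precision.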

Additional observations from a re-analysis of the deposited data

How the results depend on the processing

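The calls of Ccl9 in Lip-O mice, and of Ccl9, Ccl27a and Il18 over both liposome treatments, were kept under every alternative run. The count for Lip-C against Lip-O in OBX mice, over both operations and for the interaction was 0 under all of them. In sham mice it was 0, and 1 with the replicate block. The block changed no other call in the 2 paired comparisons than those of Ccl9 and Cxcl17 given above. For OBX in Lip-C mice the block gave 3 members (Ccl9, Ccl27a and Il18). Over both treatments it gave 5 (Ccl9, Ccl27a, Cxcl13, Cxcl17 and Il18). For OBX in Lip-C mice, the count of 1 was 2 with an intensity trend and robust moderation or array weights, 3 with only the arrays compared, 0 with the arrays numbered 1 left out, and 1 to 2 when 1 array was left out. With 1 array left out it was 2 to 6 for OBX in Lip-O mice and 3 to 8 over both treatments, where it was 8 without the arrays numbered 1. Array weights and leaving out the arrays numbered 1 were chosen after seeing the data. Lip-O sham replicate 1 was likewise singled out by the signals of the members. Without the arrays numbered 1 the adjusted p was 0.0539 for Ccl27a and 0.121 for Il18 in Lip-O mice, and 0.0915 for Il18 in Lip-C mice. Log2 changes that turned sign were those of dim or spread members and of members near 0, and the cause was not tested. Ccl20 over both treatments was 1.40 without the arrays numbered 1, 0.055 with array weights and -0.96 to 1.07 with 1 array left out. Ccl3 in Lip-O mice was 0.57 with 1 in place of 16 added, 1.25 without the arrays numbered 1, 0.39 with array weights and -1.39 to 1.51 with 1 array left out, which over both treatments gave -0.17 to 1.27. Csf1 was 0.20 as the mean of its probe sets, 0.47 by its most changed one, 0.0094 without the arrays numbered 1, 0.10 with array weights and -0.095 to 0.070 with 1 array left out. Il33 was -0.060 without the arrays numbered 1 and -0.11 to 0.066 with 1 array left out. Cxcl10 (-0.98 to 0.15) and Il6 (-0.47 to 1.44) turned only with 1 array left out. Probe sets near the 40th percentile limit what can be said of Ccl2, Ccl3, Cxcl2, Cxcl13, Il1rn, Il6, Csf2 and Csf3. The number of all genes that passed also moved. Without the arrays numbered 1 it was 0 of 13628 for Lip-C against Lip-O in either operation, 7 over both operations, 0 for OBX in Lip-C mice, 334 for OBX in Lip-O mice and 1976 for OBX over both, against 286, 47, 217, 2615, 2676 and 4459 with all arrays. With 1 array left out it was 17 to 314 for clodronate in sham mice, 7 to 76 in OBX mice, 84 to 258 over both, 838 to 3030 and 1403 to 2793 for OBX under Lip-C and Lip-O, and 0 to 155 for the interaction (0 with all arrays). With only the arrays compared it was 79, 2 and 1574 for clodronate in sham mice, clodronate in OBX mice and OBX in Lip-O mice. With an intensity trend it was 615, 97, 326 and 107 for clodronate in sham mice, in OBX mice, over both and the interaction, and with array weights 1262 in sham mice, 351 over both, 4058 for OBX under Lip-C, and 30 for the interaction. Without the filter it was 56 in sham mice, 106 over both, 1736 for OBX under Lip-C, and 1 for the interaction. Each probe set by itself gave 838 in sham mice and 3 for the interaction.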
